A study of Mus musculus with 2 samples.

Results

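Hox, Tbx, Sox, Pax and Six-family genes encode transcription factors that lay out the body plan. Of the 86 such mouse genes, 6 (6.98%) were the nearest gene to a Foxp4 binding site, against 9.11% of other protein-coding genes. The cells studied were at an early stage of beige adipocyte differentiation. Foxp4 is a forkhead protein known mainly as a repressor of transcription. The list of genes was chosen with earlier results of these data known. Its members, set by symbol, were protein-coding genes named Hoxa, Hoxb, Hoxc, Hoxd, Tbx, Sox or Pax plus a number, and likewise the Six-family genes. They comprised 39 Hox, 13 Tbx, 19 Sox, 9 Pax and 6 Six-family genes of 21900 protein-coding genes in the reference, and 7 of the 3317 peaks belonged to them.

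The cells came from inguinal white fat of C57BL/6 mice and were its stromal vascular fraction, a primary mixture of fat progenitors, fibroblasts, blood vessel and immune cells. They were cultured for 3 days with 20% serum and then kept for 48 h with 10% serum and 5 agents, namely troglitazone at 5 µM, T3 at 50 nM, dexamethasone at 1 µM, insulin at 5 µg/ml and isobutylmethylxanthine at 0.5 mM, a cocktail that starts adipogenesis and favours the thermogenic fate. No transgene, deletion or second treatment is named in the labels, and how many mice were pooled is not given there. The series held 1 Foxp4 chromatin immunoprecipitation (ChIP) library, whose peaks are described here, and 1 input DNA library, not analysed here. With 1 library there is no replicate error and no test between conditions, read depth is unknown, and binding sites give no expression levels, so the cell mixture could not be checked against its markers. Intervals on shares are exact (Clopper-Pearson) 95% binomial intervals, which treat genes or peaks as independent and cover counting error only.

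Hox genes lie in 4 compact clusters and are expressed in an order along the trunk that matches their order on the chromosome. Fat depots and their progenitor cells keep part of this positional code in culture. Tbx15 is used as a marker of subcutaneous fat, Tbx1 as a marker of beige adipocytes, and Sox9 is a factor of cartilage and of undifferentiated mesenchymal cells. Pax3 acts in the progenitors of muscle and in the neural crest, Pax8 in thyroid and kidney, and Six6 in the eye and the pituitary.

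No peak overlapped the promoter windows available for the families, a count near the background. The reference promoter table, from RefSeq (GRCm38.p6, the assembly behind mm10), held 70 windows for 56 of the 86 genes. Each ran from 250 bases before to 50 after a start site. Of these windows 0 overlapped a peak, against 245 of all 32851 windows (0.746%). With so low a share among all windows, 0 of 70 does not set the families apart. The closest approaches to a start site within the Hox clusters were the peak upstream of Hoxc4 and the peak at Hoxd3os1, a non-coding antisense gene inside Hoxd3. The 250 bases before these start sites are printed because the 2 highest peaks of the clusters lie beside them. Both are 5′ to 3′ on the gene's own strand, Hoxc4 being on the plus strand (chr15:103034145-103034394) and Hoxd3os1 on the minus strand (chr2:74716131-74716380). The capitals mark TGTTT or its complement AAACA, the 5 bases that begin the forkhead site TGTTTAC.

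Hoxc4: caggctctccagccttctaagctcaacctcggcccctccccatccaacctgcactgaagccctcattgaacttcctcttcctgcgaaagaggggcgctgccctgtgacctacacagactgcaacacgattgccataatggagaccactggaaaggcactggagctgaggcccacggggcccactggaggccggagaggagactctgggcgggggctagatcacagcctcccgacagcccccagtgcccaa

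Hoxd3os1: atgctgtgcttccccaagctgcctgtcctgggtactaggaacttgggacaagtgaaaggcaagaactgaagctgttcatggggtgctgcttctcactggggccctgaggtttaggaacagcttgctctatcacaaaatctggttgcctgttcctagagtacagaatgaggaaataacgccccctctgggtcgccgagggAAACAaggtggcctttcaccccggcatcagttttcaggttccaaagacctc

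The Hoxc4 stretch was 62.0% G and C with 8 CG pairs and had no such match. The Hoxd3os1 stretch was 52.8% G and C with 4 CG pairs and had 1 match. The 5 letters are common, with a match in the 250 upstream bases of 46.4% of all windows and of 25 of the 70 windows of the patterning genes (35.7%, 24.6 to 48.1). The full sites TGTTTAC and TATTTAC, searched on both strands of the whole windows, differ at 1 base and cannot match at the same bases. One or the other was present in 3 of the 70 windows (4.29%, 0.893 to 12.0), at Hoxa2, Hoxd1 and Sox12, and in 6.54% of all windows. The windows of the patterning genes had a median of 58.7% G and C, against 52.7% for all windows. The peaks themselves lay outside these windows, 501 bp away at Hoxc4 and 216 bp away at Hoxd3os1. The Hoxd3os1 peak lay downstream of its start site, on the other side from the printed bases. It was on a (CAAA)n repeat, whose unit spells AAACA when repeated. The peaks' own sequences were not used here.

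The 6 genes with a peak were Hoxc4, Hoxc6, Tbx15, Pax3, Pax8 and Six6, which was a share of 6.98% (2.60 to 14.6). Among the 21814 other protein-coding genes 9.11% were named as nearest to a peak, a value inside that interval. The share of patterning genes with an assigned site was therefore near the background. By family the counts were 2 of 9 Hoxc genes, 2 of 9 Pax genes, 1 of 13 Tbx genes and 1 of 6 Six-family genes. None of the 11 Hoxa genes, 10 Hoxb genes, 9 Hoxd genes or 19 Sox genes had one. The interval for Sox reached up to 17.6% and that for Hoxa up to 28.5%, so counts of 0 in groups of this size also allow shares above the background.

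**Figure D1:**
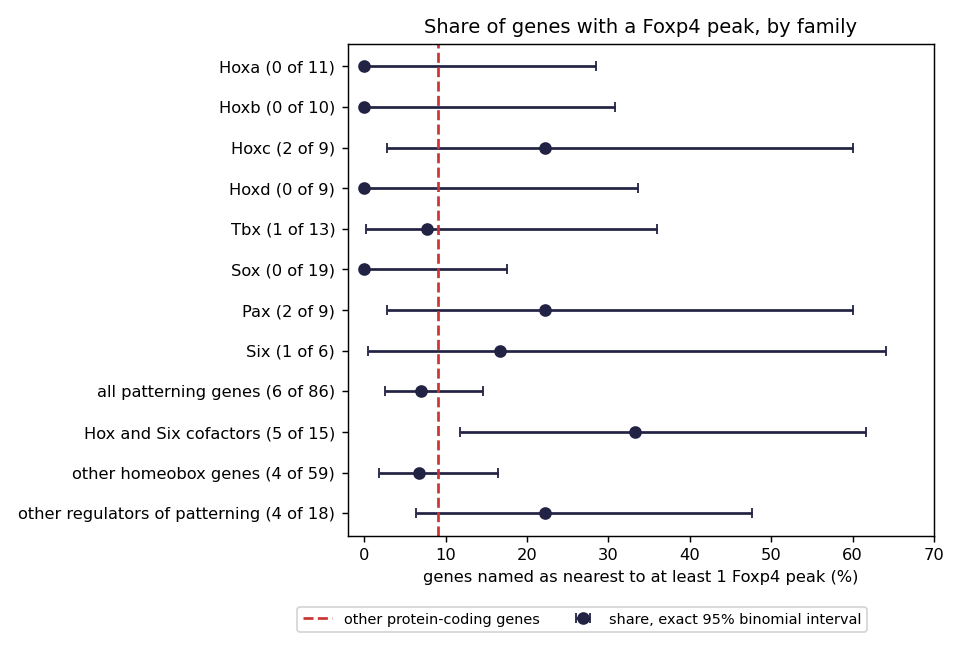
Share of genes named as nearest to at least 1 Foxp4 peak (x axis, percent) for each patterning family, for all of them and for 3 lists of related genes (y axis, with counts); bars are exact 95% binomial intervals and the dashed line is the share of other protein-coding genes. The intervals of all 8 family rows, and that of the 86 genes together at 6.98%, include the 9.11% of the line.

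The strongest site was at Hoxc4, which acts at neck and upper trunk level. The peak (chromosome 15, 103033234 to 103033644, mm10) lay 0.956 kb upstream of the start site, was annotated as promoter, and had a score of 228. The score is the one number of strength in the file, and its scale is not stated in the sources used here, so it serves only to rank peaks. Its rank was 227, within the top 6.93% of the 3317 peaks. Hoxc4 was the 1 patterning gene of 86 with a peak within 3 kb of its start site (1.16%, 0.0294 to 6.31), against 2.09% of other protein-coding genes. The reference gives Hoxc4 a body of 18.8 kb that holds the peak, so the site is upstream of 1 transcript start and inside the gene as a whole. The next gene body, that of Hoxc5, was 15.8 kb away.

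A weaker site in the same cluster was assigned to Hoxc6, a gene of the thoracic level. This peak (chromosome 15, 103002841 to 103003180) had a score of 31 and lay 6.55 kb upstream of the start site used in the file. It was annotated as intergenic, although the reference's longer Hoxc6 body of 13.7 kb includes it. It started 30.4 kb from the start of the Hoxc4 peak. By score it stood near the bottom of the list, with 86.2% of all peaks at or above it. The Hoxc genes typical of the lower trunk had no peak assigned to them. The gap from gene body to this peak was 8.57 kb for Hoxc8, 18.4 kb for Hoxc9 and 30.9 kb for Hoxc10.

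In the Hoxd cluster 1 peak was found, with a score of 159 (rank 391), and the file assigned it to Hoxd3os1 and not to a Hox gene. It lay in intron 1 of that antisense transcript (chromosome 2, 74715472 to 74715865), 462 bp downstream of its start site, on a (CAAA)n tandem repeat. The same position is inside the 36.3 kb body of Hoxd3, while the bodies of Hoxd4 and Hoxd8 were 6.11 kb and 7.54 kb away. A count by nearest gene therefore leaves Hoxd at 0 of 9.

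Over all 4 clusters, 492.1 kb from the first to the last Hox gene, there were 3 peaks. This is 0.610 per 100 kb (exact Poisson 95% interval 0.126 to 1.78), against 0.123 per 100 kb over the annotated span of the genome. The lower limit of that interval is barely above the value of the genome, and it rests on 3 peaks. Of the 39 Hox genes 2 were the nearest gene to a peak (5.13%, 0.627 to 17.3), against the 9.11% of other protein-coding genes. The 2 peaks of Hoxc were 1.73 per 100 kb (0.209 to 6.24), against 0.152 over chromosome 15. The 1 of Hoxd was 1.03 per 100 kb (0.0261 to 5.75), an interval that includes the 0.125 of chromosome 2. There were 0 in the 105.5 kb of Hoxa and 0 in the 173.9 kb of Hoxb. The Poisson intervals of these clusters reach 3.50 and 2.12 per 100 kb, and include the 0.124 and 0.160 of their chromosomes. The closest peak to the Hoxa cluster lay 244.1 kb outside it (score 146, nearest to 1700094M24Rik). For Hoxb the closest lay 514.9 kb away (score 49, nearest to Phb). No further peak lay within 20 kb of any of the 4 clusters.

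**Figure D2:**
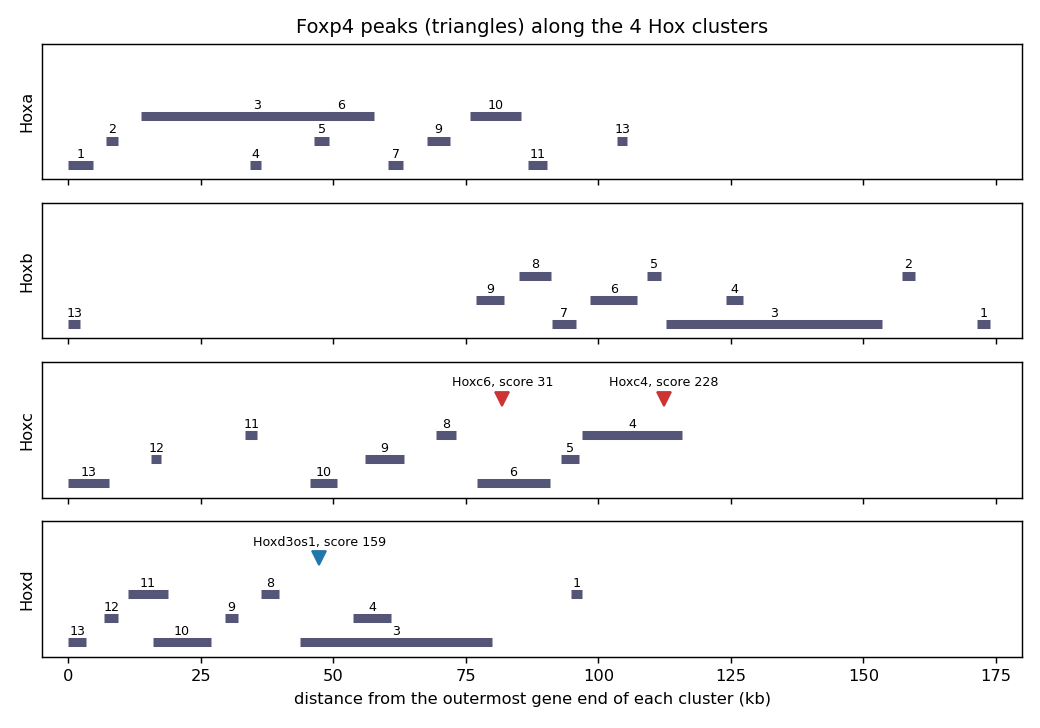
Gene bodies (dark bars, labelled by Hox number, staggered in height for legibility only) and Foxp4 peaks (triangles, red where the nearest gene is a Hox gene and blue where it is Hoxd3os1) along the 4 Hox clusters; the x axis is the distance in kb from the gene end at the lowest position of each cluster. Hoxc carries peaks of scores 31 and 228, Hoxd 1 of score 159, and Hoxa and Hoxb none.

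Among the T-box genes a site was found at Tbx15, which shapes limb and skin mesenchyme. The peak (chromosome 3, 99262226 to 99262527) lay in intron 1 of 7, 8.62 kb downstream of the start site, on a (CAA)n repeat, with a score of 73. That is within the top 42.9% of all peaks. The next gene body, Wars2, was 41.0 kb away. Tbx1 had no peak assigned, and the closest lay 96.2 kb from its body with a score of 95. For Tbx18, a gene of several mesenchymal tissues, the closest was 520.3 kb away (score 65).

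The Pax family had 3 peaks at 2 genes. Pax3 was the 1 patterning gene with more than 1 peak, which is 1 of 86 against 1.92% of other protein-coding genes with 2 or more. Its first peak (chromosome 1, 78210062 to 78210411, score 50) lay 13.1 kb upstream of the start site on a B1-related element (PB1D11). The body of the predicted gene Gm2102 in the reference was closer to that peak, at 4.55 kb, than the body of Pax3, at 12.9 kb. The second (chromosome 1, 78018268 to 78018573, score 45) lay 178.7 kb downstream of the start site, which is 82.7 kb past the other end of the gene. Pax8 carried a single peak (chromosome 2, 24451637 to 24451943) in intron 2 of 11, 23.8 kb downstream of the start site and on a (TTG)n repeat. With a score of 121 it was within the top 19.5% of peaks. The non-coding gene Gm13415 overlaps the same position. For the other 7 Pax genes the closest peak was between 290.2 kb (Pax5) and 822.7 kb (Pax1) from the gene body.

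Among the Six-family genes the 1 peak was assigned to Six6 (chromosome 12, 72983348 to 72983841) and had the lowest score of the 7, at 23. It was intergenic, 43.7 kb downstream of the Six6 start site and on an annotated tRNA-Ala sequence. It lay 38.4 kb from the body of Six6. Six4, on the same chromosome, had no peak assigned to it, and its body was 115.8 kb from the same peak.

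No Sox gene was the nearest gene to a peak. One site nevertheless fell inside a Sox gene as the reference delimits it. It lay in the 953.9 kb body of Sox5, a partner of Sox9 in cartilage formation, at chromosome 6, 144754108 to 144754492, had a score of 47, and was assigned to the antisense gene Sox5os3. The closest peak to Sox9 lay 195.2 kb from its body with a score of 45, and was assigned to 1700012H19Rik.

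The 7 peaks had scores of 228, 121, 73, 50, 45, 31 and 23. Their median was 50.0 (quartiles 38.0 to 97.0), and the other 2624 peaks nearest to protein-coding genes had a median of 65.0 (41.0 to 103). Of the 7, 3 were at or above 65.0, the median of the whole list, and they lay at 3 genes of 86, against 5.15% of other protein-coding genes. The distance to the start site, without its sign, had a median of 13.1 kb (7.58 to 33.8) and one of 27.4 kb (7.09 to 75.7) for the other peaks. The 3 upstream peaks belonged to Hoxc4, Hoxc6 and Pax3. Both sets of quartiles overlap widely, and 7 peaks give little precision.

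**Figure D3:**
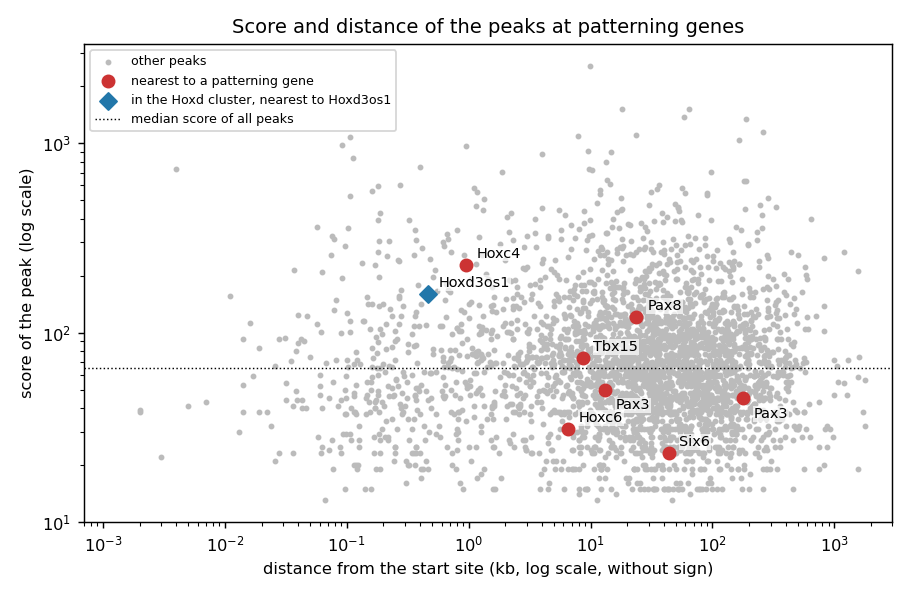
Score of each peak (y axis, log scale) against its distance from the start site in kb, without sign (x axis, log scale, distances under 1 bp drawn at 1 bp); grey points are other peaks, red points the 7 peaks nearest to patterning genes, the blue diamond the peak at Hoxd3os1, and the dotted line the median of all scores, 65.0. The red points spread from 23 to 228 in score and from 0.956 to 178.7 kb in distance, inside the cloud of other peaks.

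By annotation, 4 of the 7 peaks were intergenic, 2 were in introns and 1 was at a promoter. Among the other 2624 peaks 48.2% were intergenic, 39.5% in introns and 9.49% at promoters. Repeats were annotated at 4 of the 7 (57.1%, 18.4 to 90.1), namely those of Tbx15, Pax8 and Six6 and the upstream peak of Pax3, against 23.7% of the others. The Tbx15 and Pax8 repeats have units of T followed by 1 G, read on 1 of the strands. Such repeats were at 2 of the 7 peaks (28.6%, 3.67 to 71.0), an interval that includes the 6.33% of the other peaks. The repeat under the Hoxd3os1 peak, which is not among the 7, is of the same kind. At the Hoxc4 peak the file repeats the promoter class in place of any repeat, so a repeat there would not be seen. The peaks were 302 to 494 bp wide with a median of 340, against a median of 393 for the others.

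Genes with more sequence around them were more often the nearest gene to a peak. The territory of a gene, its body with the gaps up to the midpoints towards neighbouring gene bodies, had a median of 26.0 kb for the 86 genes and 41.7 kb for other protein-coding genes. It was 8.44 kb for Hox, 43.5 kb for Sox, 52.7 kb for Tbx, 52.7 kb for Six-family genes and 157.3 kb for Pax. When protein-coding genes were divided into 5 groups by territory, the share of other genes with a peak went from 3.29% in the smallest to 22.4% in the largest. Of the 38 patterning genes in the smallest group, 29 of them Hox, 0 had a peak (upper limit 9.25%). Of the 19 in the largest group 3 had one (15.8%, 3.38 to 39.6), those 3 being Tbx15, Pax3 and Pax8. Weighting the shares of other genes by the territories of the 86 genes gave 8.79%, or 7.56 genes, beside the 6 counted.

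**Figure D4:**
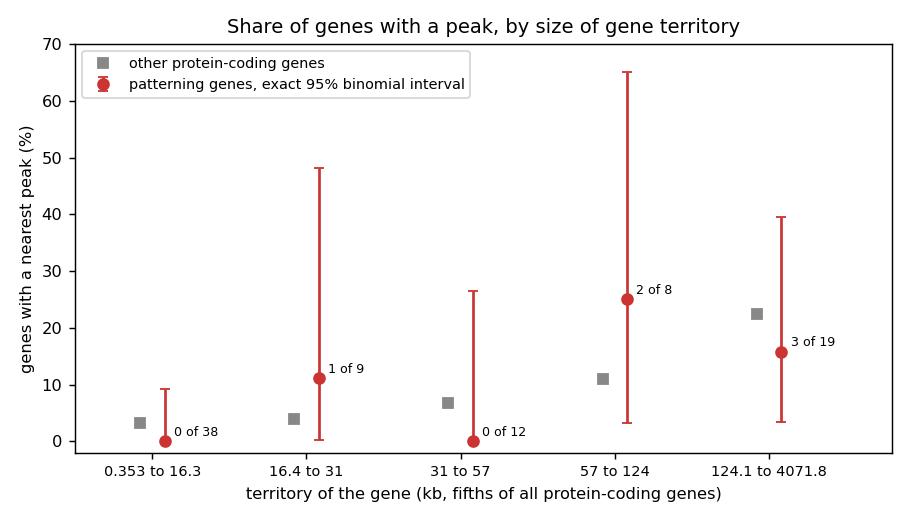
Share of genes with a nearest peak (y axis, percent) in 5 groups of protein-coding genes by territory (x axis, kb); grey squares are other protein-coding genes and red points the patterning genes with exact 95% binomial intervals and their counts. The grey squares climb from 3.29% to 22.4%, and the intervals of the red points contain them in each of the 5 groups.

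A count by gene body with flanks, in which a peak can count for several genes, gave a larger number than the count by nearest start site. A peak lay on the body or within 20 kb of it for 13 of the 86 genes (15.1%, 8.30 to 24.5), against 11.1% of other protein-coding genes. These were 5 Hoxc, 4 Hoxd, 2 Pax, 1 Tbx and 1 Sox gene, and 7 different peaks were the closest ones to them. The 4 Hoxd genes, Hoxd3, Hoxd4, Hoxd8 and Hoxd9, all owed the count to the peak at Hoxd3os1. Hoxc8, Hoxc9 and Hoxc5 were counted through peaks assigned to Hoxc6 or Hoxc4, and Sox5 through the peak assigned to Sox5os3. Six6, whose peak lies farther from its body, was not counted. Within 100 kb of the body the share was 29.1% for the 86 genes and 27.7% for other genes. It was 18 of 39 for Hox, 2 of 13 for Tbx, 1 of 19 for Sox, 2 of 9 for Pax and 2 of 6 for Six-family genes. The median gap to the closest peak was 294.5 kb for the 86 genes and 276.9 kb for other protein-coding genes. The Hox medians were 18.4 kb for Hoxc, 20.4 kb for Hoxd, 291.9 kb for Hoxa and 618.8 kb for Hoxb, and 259.1 kb over all 39 genes. The medians of the other families were 546.8 kb for Sox, 513.5 kb for Tbx, 359 kb for Pax and 159 kb for the Six-family genes.

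**Figure D5:**
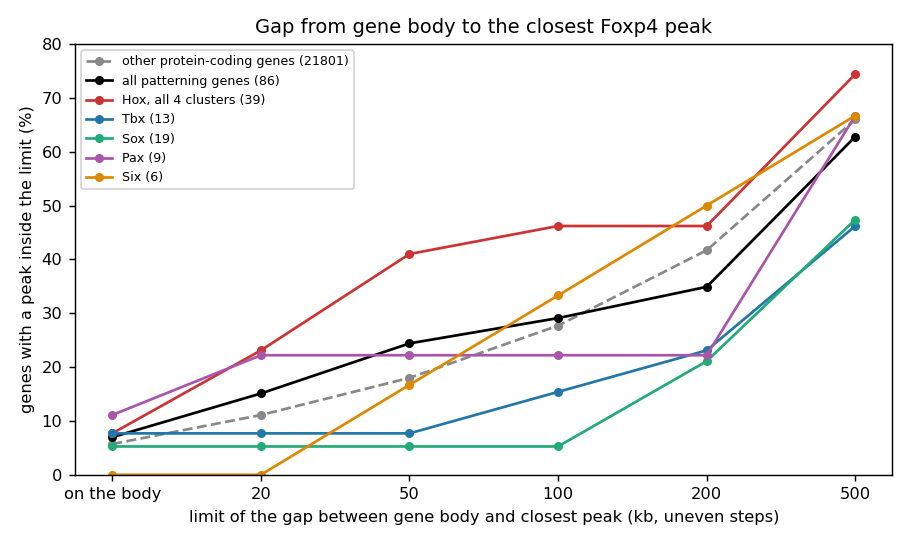
Cumulative share of genes (y axis, percent) whose closest peak lies on the gene body or within each limit (x axis, kb, uneven steps) for the patterning families, all 86 genes and other protein-coding genes; numbers of genes are in the key, and members of 1 Hox cluster share peaks. At 100 kb Sox stands lowest with 1 of 19 genes, Hox highest with 18 of 39, and the 86 genes together at 29.1% lie beside the 27.7% of other genes.

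Related genes outside the 5 symbols were described in the same way. Of 15 cofactors of Hox and Six-family proteins, 5 had a peak (33.3%, 11.8 to 61.6), beside the 9.11% of other protein-coding genes, and their median territory was 249.8 kb. They included Pknox1 (score 19, at -0.425 kb), a DNA-binding partner of Hox proteins, and the Six-family coactivators Eya4 (40), Eya1 (25) and Eya2 (15). No peak was assigned to Meis1, Meis2 or Meis3, which also partner Hox proteins. Of 59 other homeobox genes 4 had a peak (6.78%, 1.88 to 16.5). These were Irx1 with 105 and 90, the limb mesenchyme gene Prrx1 with 85 at -8.40 kb, Alx4 with 44, and En1 with 39 and 31. Of 18 further regulators 4 had one (22.2%, 6.41 to 47.6), led by the Hedgehog effector Gli2, with 346, 102 and 95 at -29.3, -125.1 and -99.6 kb. The others were Twist1 (103), Gata3 (92) and Twist2 (54). In all, 13 of these 92 genes (14.1%, 7.74 to 23.0) had a peak and 1 had it within 3 kb. The difference between them and the 86 genes was not tested, and their median territory of 63.2 kb was larger than the 26.0 kb of the 86 genes. Among 44 forkhead genes 7 (15.9%, 6.64 to 30.1) and among 17 Klf genes 7 (41.2%, 18.4 to 67.1) had a peak. Their median territories were 55.9 kb and 135 kb. In the group with the largest territories, from 124.1 kb up, 22.4% of other genes had a peak. That value is inside the Klf interval but is not matched to the territories of all 17 Klf genes. No share weighted by territory was computed for these 2 lists, and their differences from other genes were not tested.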

How the data were processed

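Foxp4 ChIP peaks of 1 library were analysed. Per the file headers, the deposited list is a narrowPeak file to which HOMER annotatePeaks.pl added mm10 annotation. The submitters' processing notes name the tools deepTools 3.3.0, MACS2, SAMtools, Picard and Bowtie2, with no roles. The authors' score has no stated scale. Handling of the input and of multiply aligned reads, which could change the peaks on repeats, is not stated.

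Of the lines, 3317 were peaks and were kept, and 1 was not. Nearest genes and distances are those deposited by the authors. A RefSeq table (GRCm38.p6) held 2459 of the 2462 nearest genes by gene number. For 98.9% of 3314 peaks the deposited distance, on either strand, led to a start site in the named gene (tolerance 2 bp). Territories used genes with a curated transcript, and gaps were measured from gene bodies. Python 3.11.15, pandas 2.3.3, numpy 2.4.6 and scipy 1.17.1 were used, and gap and territory code was tested on simulated data. No list was tested, since members and lists were chosen with earlier results of these data known. The forkhead and Klf comparisons and the 5-base core were added after the data were seen. The rule for named genes allowed every patterning gene with a peak, plus Tbx1, Tbx18, Sox9, Hoxc8, Hoxc9, Hoxc10 and Hoxa5, and some results are not reported here. Other genes, such as Sox5, Hoxd3 and the windows with motifs, were named after their values were seen. Hoxa5 had no peak, the closest lying 300.4 kb away. Alternatives changed the score limit, window, distance limit, assignment, repeats and merging of peaks.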

Additional observations from a re-analysis of the deposited data

How the results depend on the processing

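Of 18 alternatives 15 left the value within 1.5 times of the count reported, or a median within its 95% interval, which for 7 peaks spans their full range. With peaks at or above the median score alone, 3 patterning genes had a nearest peak, against 5.15% of other protein-coding genes. With gene bodies and 20 kb on each side 13 did, against 11.1%. This alternative both adds flanks and lets a peak count for several genes, among them genes whose peak the file assigns to an antisense gene (Hoxd3, Sox5), and it leaves out Six6. When a midpoint within 3 kb of either gene end was required in place of a start site, the count at promoters was 0 in place of 1, against 2.73%, because the Hoxc4 start site used in the file is not an end of the gene body. Without simple repeats 4 genes had a nearest peak against 8.51%, the peaks of Tbx15 and Pax8 being left out. With a score of at least 30, 5 had a nearest peak against 8.07%, Six6 being left out. No paired analysis was possible because the series holds 1 ChIP library. Without read depth, sites too weak to be called cannot be told from sites without binding.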
